A study of Homo sapiens with 12 samples.

Results

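Long noncoding RNA (lncRNA) genes with a systematic name were read from RNA sequencing of A375 human melanoma cells. These carried an empty vector or 1 of 3 mutant forms of YAP. A locus was taken when one of its gene symbols was LINC followed by a number (intergenic lncRNA), ended in -AS and a number (a transcript antisense to the gene named before it), or was of the form MIR, number, HG (the host transcript of a miRNA). It also had to reach an FPKM (fragments per kilobase of transcript, scaled to the mapped fragments of the library) of at least 1 in at least 3 of the 12 libraries. Of 281 loci with such a symbol among 31585 distinct loci, 85 passed, and these are described here: 51 antisense, 29 LINC and 5 host loci. Since the loci were chosen by these same FPKM values, their levels are given as a description only. Of the 196 loci that did not pass, 51 were listed at 0 in all 12 libraries, 145 had some value above 0, 9 reached an FPKM of 1 in 1 library and 0 did so in exactly 2. On the inner side of the threshold, 7 loci (ADARB2-AS1, BDNF-AS1, FRMD6-AS1, GCFC1-AS1, ST7-AS1, TLR8-AS1 and ZRANB2-AS1) reached it in exactly 3 libraries. BDNF-AS1 and TLR8-AS1 passed through the YAP-2SA libraries alone and ZRANB2-AS1 through the YAP-S127A,S94A libraries alone, so a difference of these 3 in the direction of that group was built into their choice.

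A375 is an established melanoma cell line, and all 4 groups carried the same retroviral backbone (MSCV-IRES-Hygro) and were selected with hygromycin. Control cells carried it empty. The YAP-S127A insert has alanine in place of the serine by which the LATS kinases keep YAP in the cytoplasm, the YAP-S127A,S94A insert also lacks the serine needed to bind the TEAD transcription factors, and the YAP-2SA insert (YAP-S127A,S381A) also lacks a serine through which YAP is marked for degradation. There were 3 libraries in each group, which the series description gives as replicates plated from the transduced line of each construct, so p-values here measure the spread between these cultures, and no source used here describes separate transductions. The sample records give 24 h of culture before lysis and the study's methods 48 h, and 1 field of the records of the YAP-2SA libraries also lists S94A, against their titles, which were followed.

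YAP is a coactivator of the Hippo pathway. It has no DNA-binding domain of its own and reaches promoters and enhancers mainly through the TEAD factors, often at sites that also hold AP-1 factors, and its paralogue TAZ is encoded by WWTR1. Long noncoding RNAs are transcribed by RNA polymerase II and often capped, spliced and polyadenylated like messenger RNA. Some act in the nucleus on neighbouring or distant genes, some bind proteins or miRNAs in the cytoplasm, some serve mainly as the precursor of a miRNA or of small nucleolar RNAs, and for many no function is known.

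The level of YAP1, which includes the inserted copies, was 34.1 and 33 FPKM in Control replicates 1 and 2 but 172 in Control replicate 3, and 130 to 187 in the 9 libraries with a YAP insert. The library labelled Control replicate 3 thus went against its label for the gene that defines the groups. The main counts of calls among the 85 loci that rest on the Control group are given with and without it. Of 10 melanoma markers, 5 were tested, with a summed level over the whole list of 1129 to 1144 FPKM in Control and 678 to 732 in YAP-2SA libraries. SOX10 and S100B fell in A375-YAP-2SA cells, by 5.22 and 4.73 on the log2 scale, and MITF rose by 1.96. The pigment genes MLANA, PMEL, TYR, DCT and TYRP1 stayed under 1 FPKM in every library, TYRP1 with a mean of 0.0749 in Control and 0.812 in YAP-2SA. Among markers of other cells, the fibroblast list (3 of 5 tested) summed to 43.1 to 46 FPKM in Control and 69.6 to 79.1 in YAP-2SA libraries, the keratinocyte list (3 of 6) to 30.3 to 33.5 and 23.6 to 30.4, and the immune list (1 of 5, LYZ) to 14.6 to 17.2 and 2.49 to 3.18. These lists did not move as a whole, since COL1A1 rose by 4.70 while the row of PDGFRA had a log2 fold change of -0.11 (adjusted p = 0.233). That row also lists FIP1L1 and LNX1, so its value cannot be assigned to PDGFRA. Its Control mean of 42.5 FPKM made up most of the fibroblast sum. In the keratinocyte list, KRT5 rose by 1.32 while KRT14 fell by 2.45. KRT5 reached 1 FPKM in the YAP-2SA libraries alone (1.65, 1.67 and 1.37), so its rise was built into its being tested. The melanoma, fibroblast and immune sums did not overlap between Control and YAP-2SA, and their part in the results on lncRNA loci was not tested. In such bulk samples, fewer cells that express a gene cannot be told apart from less of its RNA per cell.

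Most of the 85 loci were expressed at a low level. Their mean FPKM over 12 libraries had a median of 2.64 (interquartile range 1.35 to 9.25), against 9.76 for all 15055 loci that passed the filter, and 45 of the 85 (52.9%) had a mean under 3, against 25.3% of all. The spread was wide, and 4 loci exceeded 100 FPKM. C17orf76-AS1, on a row shared with the small nucleolar RNA SNORD49B, which lies in an intron of this transcript, reached 1470 to 4167 FPKM and spread from 1799 to 4167 within the Control group alone. ZNFX1-AS1 (ZFAS1), also a host of small nucleolar RNAs, was next with 217 to 310 FPKM, followed by HNRNPU-AS1 on the row of the coding gene HNRNPU with 156 to 196 FPKM and WWTR1-AS1 with 34.4 to 154 FPKM. Of the 85, 68 had a row of their own and 17 shared it with another symbol, so that the value of those 17 cannot be assigned to the lncRNA alone. The annotation has also moved since the table was made. Of 84 distinct symbols, 76 matched 1 gene of the GENCODE annotation of GRCh37, of which 69 are still lncRNA and 5 are now coding, among them LINC00493 (now SMIM26, a small membrane protein) and LINC00085 (now SPACA6).

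In A375-YAP-2SA cells, compared to control cells, 6 of the 85 loci were upregulated and 14 downregulated, where a call required a Benjamini-Hochberg adjusted p under 0.05 in limma and group means of FPKM more than 2-fold apart. These are 7.06% and 16.5% of the 85, while of all 15055 loci tested 7.59% were called higher and 7.86% lower. The 6 include BDNF-AS1 and TLR8-AS1, and without the 3 loci that passed the filter through 1 group alone, 4 of 82 (4.88%) were called higher and 14 (17.1%) lower. Under this rule the share that fell was thus above that of all loci, and the share that rose was not. Among the 14 lower calls, LINC00326, LINC00327, LINC00239, LINC00511, LINC00473 at both loci, MCF2L-AS1 and ADARB2-AS1 passed the filter without any YAP-2SA library. Their choice rested on the other groups, so a lower YAP-2SA level was in part built into it. They were kept in these counts, and all 15055 loci had passed the same filter. LINC00473, listed on 2 loci, counts for 2 of the 14. The median log2 fold change of the 85 was -0.02, against 0.01 for all tested. The lower calls were mostly of the LINC class, with 9 of 29 lower and 2 higher, whereas 5 of 51 antisense loci were lower and 3 higher and 1 of 5 hosts was higher. Without the fold threshold, 16 of the 85 passed higher and 20 lower, against 22.9% and 19.5% of all loci. The share that fell was then closer to that of all loci. These counts were 13 and 17 without Control replicate 3. The ratio of group means has no added 1 and most of the 85 loci were low, and the part of this in the lower calls was not tested. Without Control replicate 3 there were 7 higher and 14 lower calls, in which all 6 of the higher and 13 of the 14 lower calls were kept. The exception was LINC00277, whose adjusted p became 0.0502, and FAS-AS1 and LPP-AS2 were added, whose partners FAS (on a shared row) and LPP had log2 fold changes of 0.55 and 0.00 with all libraries.

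**Figure D1:**
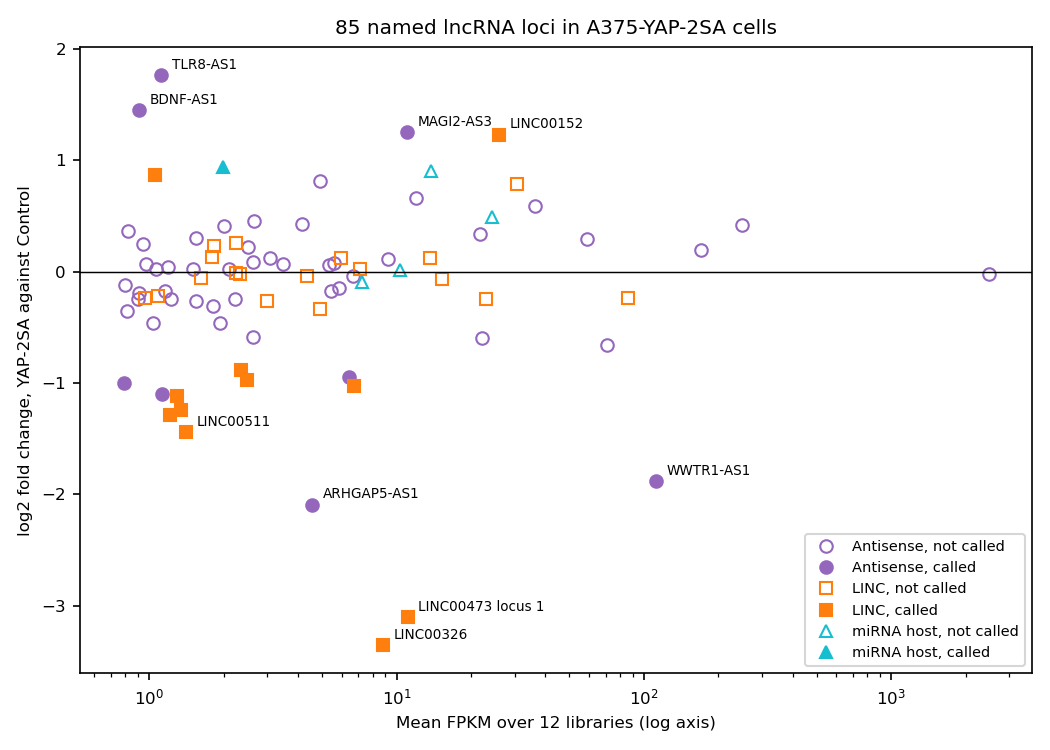
Mean FPKM over 12 libraries (log axis) against the log2 fold change in YAP-2SA against Control for the 85 loci, with filled symbols for the 20 called loci and the shape giving the class. LINC00326 and LINC00473 locus 1 lie at -3.35 and -3.10, apart from the other loci, and most open symbols lie close to 0 at every level.

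Among intergenic loci, LINC00326 showed the greatest decrease. It lies at chr6:133275396-133428549 (GRCh37, plus strand), overlaps no coding gene and has EYA4 as its nearest coding gene. Its FPKM was 12.7, 15.8 and 11.6 in the Control libraries, 9.06, 9.36 and 8.43 in YAP-S127A, 12.9, 12.7 and 12.1 in the YAP-S127A,S94A libraries, and 0.463, 0.249 and 0.502 in YAP-2SA. The YAP-2SA libraries lay far under all others, and the YAP-S127A libraries lay under both the Control and the YAP-S127A,S94A libraries without overlap. The log2 fold change in YAP-2SA was -3.35 (SE 0.11, adjusted p = 2.72e-09), a ratio of group means of 33.

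LINC00473, a transcript known for its induction by cAMP signalling through CREB, was listed on 2 loci, and both fell. At the first locus the FPKM was 14.5, 13.7 and 17.1 in Control and 0.773, 0.939 and 0.884 in YAP-2SA. In between, the YAP-S127A libraries had 11, 10.4 and 9.91, while the YAP-S127A,S94A libraries had 20.3, 16 and 17.3. The first locus thus followed the order of LINC00326, with every YAP-S127A library under every Control library. Its log2 fold change in YAP-2SA was -3.10 (SE 0.10, adjusted p = 2.57e-09). The second locus was low throughout, at 1.59 to 1.82 FPKM in Control and 0.086 to 0.153 in YAP-2SA, with a log2 fold change of -1.29 (adjusted p = 8.49e-05). How reads were divided between the 2 loci is not stated, so they are not independent.

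LINC00511, whose RNA is raised in several carcinomas, had 2.39, 1.77 and 2.05 FPKM in Control and 0.0973, 0.092 and 0.192 in YAP-2SA. All 9 other libraries lay at 1.31 or above, so that the YAP-2SA libraries stood apart from each of the other groups. The log2 fold change was -1.44 (SE 0.15, adjusted p = 2.07e-05) on a scale with 1 added to the FPKM, which understates the 16.3-fold lower group mean. LINC00327 (log2 fold change -1.24) and LINC00239 (-1.12) fell from means of 2.01 and 2.04 FPKM to 0.274 and 0.376.

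LINC00460, which is known to be raised in several carcinomas and tied there to cell migration, had 6.67, 10.3 and 8.59 FPKM in Control, 4.79, 7.38 and 4.7 in YAP-S127A, 9.01, 9.04 and 9.53 in the YAP-S127A,S94A libraries, and 3.89, 3.71 and 3.22 in YAP-2SA. The YAP-2SA libraries lay under all others, and YAP-S127A overlapped with Control. The log2 fold change in YAP-2SA was -1.03 (SE 0.16, adjusted p = 4.89e-04). LINC00461, whose RNA is the precursor of miR-9 and whose row also lists MIR9-2, fell from 2.49, 3.27 and 3.16 to 1.06, 1.04 and 1.34 FPKM (log2 fold change -0.88, adjusted p = 1.32e-04). LINC00277 (EWSAT1) had 2.13, 3.03 and 4.6 FPKM in Control and 0.964, 0.718 and 1.81 in YAP-2SA, with Control replicate 3 as the highest Control library. Its log2 fold change of -0.97 (adjusted p = 0.0124) became -0.75 (adjusted p = 0.0502) without that library.

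In the other direction, 2 LINC loci rose. LINC00152 (CYTOR), a cytoplasmic lncRNA raised in many carcinomas, lies at chr2:87754300-87936259 (GRCh37, plus strand). Its FPKM was 18.3, 18.3 and 16.1 in Control, 22.6, 18.5 and 31.9 in YAP-S127A, 21, 21 and 15.8 in the YAP-S127A,S94A libraries, and 46.1, 38.9 and 42.7 in YAP-2SA. The YAP-2SA libraries were above all others, and the remaining groups overlapped. The log2 fold change was 1.23 (SE 0.17, adjusted p = 2.04e-04), a ratio of 2.42. A near-identical copy of this gene on the same chromosome can share its reads, so the level is that of reads assigned to this locus. LINC00472, reported as growth-suppressive in breast cancer, had 0.697, 0.742 and 0.653 FPKM in Control and 2.13, 2.03 and 2.15 in YAP-2SA, a log2 fold change of 0.87 (adjusted p = 3.59e-05).

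**Figure D2:**
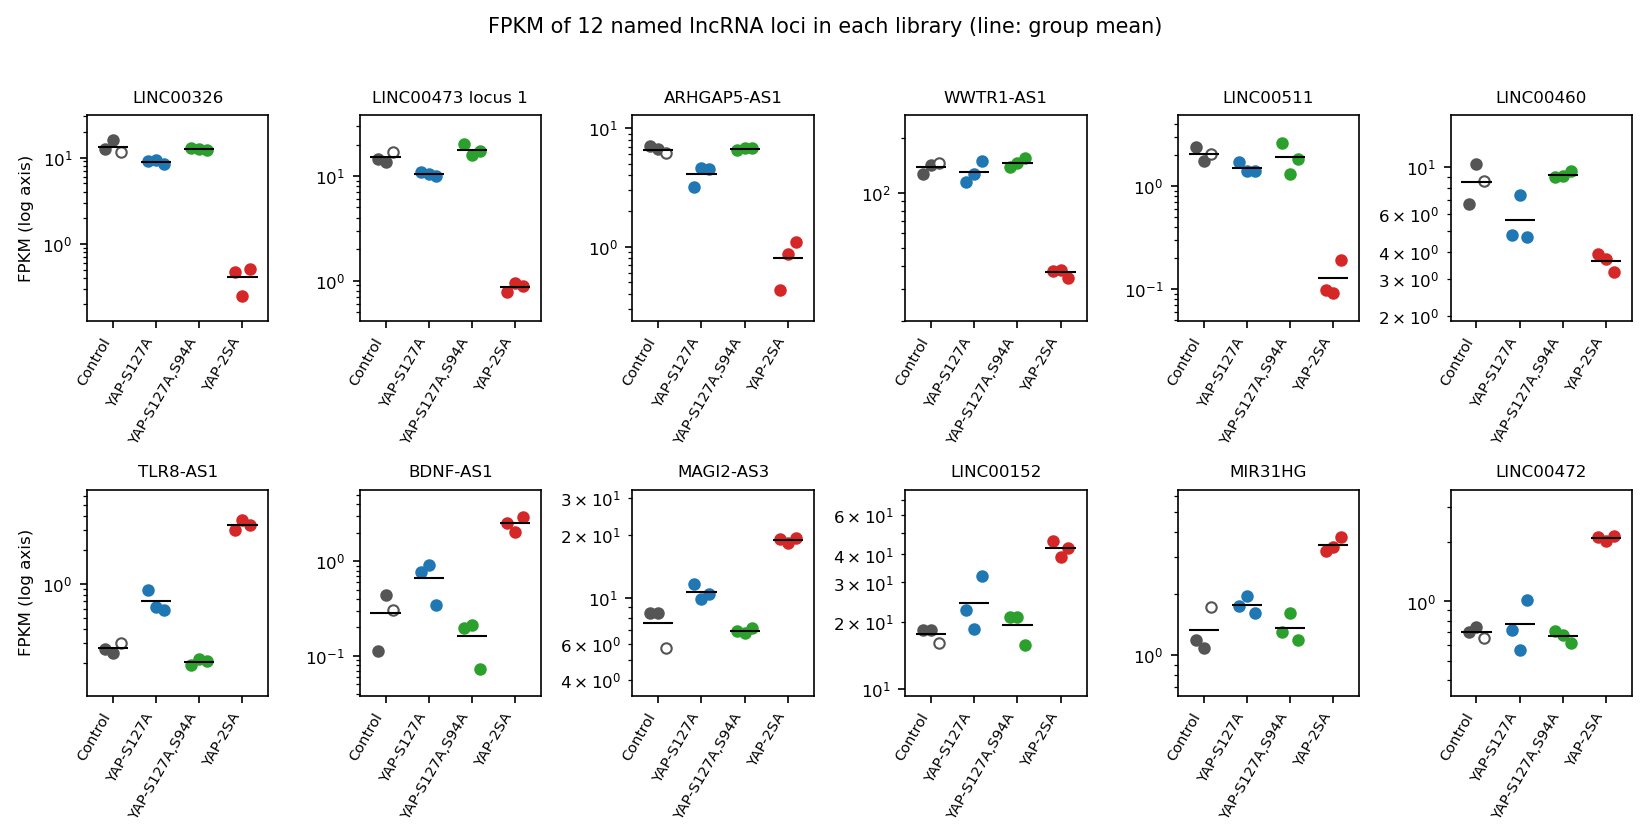
FPKM (log axis) of 12 loci in each library, with 1 point for each of 3 libraries per group, an open point for Control replicate 3 and a line at the group mean. In all 12 panels the 3 YAP-2SA libraries (red) lie on one side of every other library, and YAP-S127A,S94A (green) lies beside Control.

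Antisense loci were led by WWTR1-AS1 and ARHGAP5-AS1 among those that fell. WWTR1-AS1 lies within WWTR1, on the opposite strand, at chr3:149374786-149379151 (GRCh37), and its row also lists the transcript AK309441. It had 126, 142 and 145 FPKM in Control and 37.6, 38.1 and 34.4 in YAP-2SA. WWTR1 itself, which encodes TAZ, had 193, 189 and 216 FPKM in Control and 61.7, 56.3 and 58.3 in YAP-2SA. Both thus fell without overlap between the groups, with log2 fold changes of -1.88 (SE 0.10, adjusted p = 7.59e-08) and -1.74 (SE 0.07, adjusted p = 9.47e-09). In YAP-S127A the pair differed in its call, since WWTR1 fell by 0.31 (adjusted p = 0.0214; 0.0704 without Control replicate 3) and WWTR1-AS1 had a log2 fold change of -0.09 (adjusted p = 0.674), a difference between the 2 that was not tested. Whether the libraries kept the strand is not stated, so reads from the shared bases of a gene and its antisense partner cannot be told apart.

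ARHGAP5-AS1 is transcribed from chr14:32544152-32545999 (GRCh37, minus strand) and starts 679 bases inside ARHGAP5, a gene for a GTPase-activating protein. Its FPKM was 7.01, 6.64 and 6.13 in Control, 3.17, 4.64 and 4.52 in YAP-S127A, 6.55, 6.82 and 6.84 in the YAP-S127A,S94A libraries, and 0.435, 0.876 and 1.1 in YAP-2SA. Both mutants that can bind TEAD were under Control without overlap, and the mutant that cannot was within the Control range. The log2 fold change in YAP-2SA was -2.09 (SE 0.15, adjusted p = 1.03e-06), and ARHGAP5 fell with it, by 1.24 (adjusted p = 9.91e-07). MFI2-AS1 (MELTF-AS1) fell from 8.06, 7.16 and 9.45 to 3.32, 4.12 and 3.84 FPKM, and MFI2, which encodes melanotransferrin, fell beside it with log2 fold changes of -0.95 and -0.90. MCF2L-AS1 fell from 1.03, 2.34 and 1.4 to 0.106, 0.132 and 0.314 FPKM (log2 fold change -1.10, adjusted p = 3.18e-04), whereas MCF2L, a guanine nucleotide exchange factor, had a log2 fold change of -0.20 (adjusted p = 0.14). ADARB2-AS1 was near the filter, with 1.21, 1.22 and 0.842 FPKM in Control and 0, 0 and 0.128 in YAP-2SA, the lowest level of the 14 loci that fell (adjusted p = 0.00947), while ADARB2, an RNA-editing deaminase homologue, had a log2 fold change of 0.58 (adjusted p = 0.0631).

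MAGI2-AS3 was the most abundant antisense locus among the 3 that rose. Described as growth-suppressive in several tumours, it starts 790 bases inside MAGI2, at chr7:79082193-79100524 (GRCh37, plus strand). Its FPKM was 8.44, 8.43 and 5.74 in Control, 11.6, 9.87 and 10.4 in YAP-S127A, 6.92, 6.75 and 7.16 in the YAP-S127A,S94A libraries, and 19.2, 18.4 and 19.4 in YAP-2SA. All YAP-S127A libraries were above, and all YAP-2SA libraries far above, the Control libraries, of which replicate 3 was lowest. The log2 fold change in YAP-2SA was 1.25 (SE 0.12, adjusted p = 1.03e-05) and 1.08 without Control replicate 3. MAGI2 itself stayed under 1 FPKM in every library.

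BDNF-AS1 and TLR8-AS1 passed the filter only through the libraries in which they were high. BDNF-AS1 had 0.113, 0.44 and 0.303 FPKM in Control and 2.54, 2.06 and 2.96 in YAP-2SA, and TLR8-AS1 had 0.268, 0.244 and 0.298 in Control and 3, 3.65 and 3.29 in YAP-2SA. In YAP-S127A the levels were 0.763, 0.905 and 0.345 FPKM for BDNF-AS1, which overlapped with Control, and 0.884, 0.627 and 0.591 for TLR8-AS1, which did not. The neurotrophin gene BDNF, to which BDNF-AS1 is antisense, was called on its own in both mutants, with 0.167, 0.339 and 0.332 FPKM in Control, 1.65, 1.75 and 1.47 in YAP-S127A and 5.54, 6.18 and 5.28 in YAP-2SA (log2 fold change 2.38, adjusted p = 3.59e-08). TLR8 was listed at 0 in all 12 libraries, so that here the antisense locus was above 0 without its partner.

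Across the antisense loci, 42 of the 51 had a partner gene that was tested on a row of its own. Of the others, 2 shared the row of the partner, 1 had a partner without a row and 6 had a partner below the filter. In YAP-2SA against Control, 22.9% of all loci tested passed an adjusted p of 0.05 higher and 19.5% lower. Among the 42 pairs, the antisense locus passed in 17 and the partner in 22. How many pairs would pass for both if locus and partner were unrelated was not computed. Both the locus and its partner passed in 11 pairs, of which 10 moved the same way. The exception was TP73-AS1, which rose by 0.30 (adjusted p = 0.0235; 0.0641 without Control replicate 3) while TP73, a relative of p53, fell by 0.36 (adjusted p = 0.0214). In 11 pairs only the partner passed and in 6 only the antisense locus. Without Control replicate 3, both passed in 9 pairs, all 9 among the 11 and all in the same direction, and only the partner passed in 10 and only the antisense locus in 5. The clearest case of the former was GNAS, which encodes the stimulatory G protein alpha subunit. GNAS fell from 1972, 2141 and 2458 FPKM in Control to 481, 536 and 480 in YAP-2SA (log2 fold change -2.13, adjusted p = 2.46e-08), while GNAS-AS1 had 2.93, 3.65 and 2.84 in Control and 4.22, 3.07 and 3.22 in YAP-2SA (0.12, adjusted p = 0.531). Over the 42 pairs the log2 fold changes of locus and partner had a Pearson r of 0.65 and a Spearman coefficient of 0.57, given as a description, since the points share their libraries, their assumed strand and in part their bases. Pairs whose starts lie within 1000 bases on opposite strands, as at a shared promoter, were not set apart in the counts, with both passing in 2 of 12 such pairs and in 6 of the 24 others with known coordinates.

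**Figure D3:**
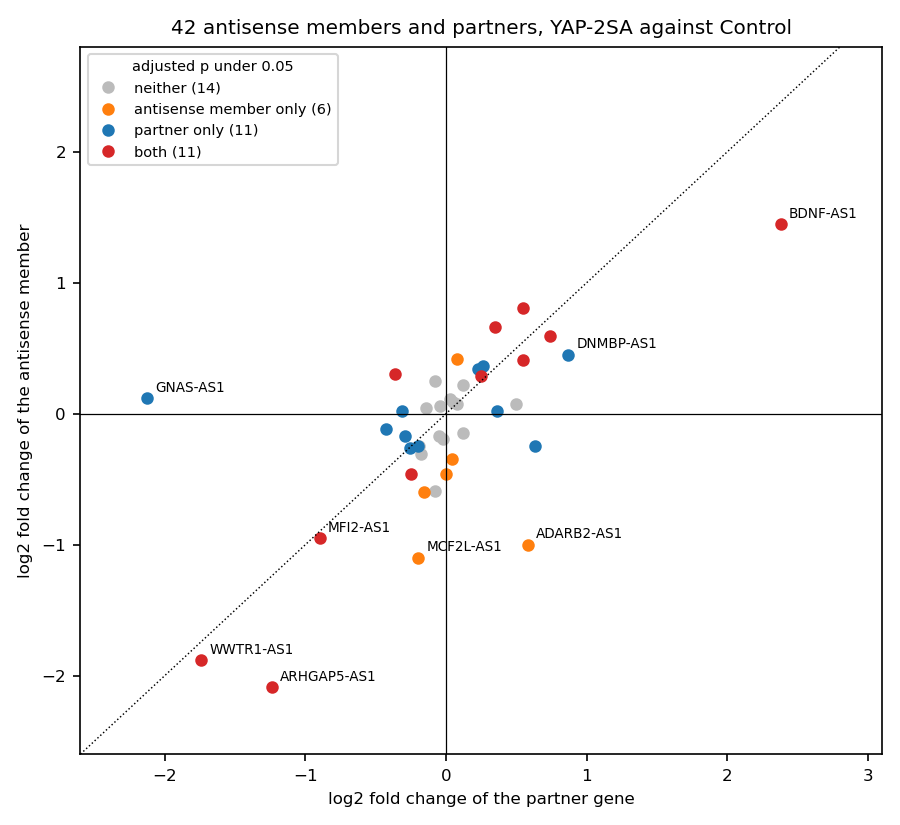
Log2 fold change in YAP-2SA against Control of 42 partner genes (x axis) and of the antisense loci named after them (y axis), with colours for which of the 2 passed an adjusted p of 0.05 and a dotted line where both are equal. WWTR1-AS1 and MFI2-AS1 lie near the line far from 0. ARHGAP5-AS1 (-2.09, partner -1.24) and BDNF-AS1 (1.45, partner 2.38) moved with their partners but lie off the line. GNAS-AS1 lies at 0.12 although GNAS lies at -2.13.

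Of the 5 miRNA hosts, MIR31HG rose in A375-YAP-2SA cells. It spans chr9:21380072-21559890 (GRCh37, minus strand) and had 1.19, 1.08 and 1.72 FPKM in Control, 1.73, 1.95 and 1.6 in YAP-S127A, 1.3, 1.6 and 1.19 in the YAP-S127A,S94A libraries, and 3.23, 3.37 and 3.77 in YAP-2SA. The YAP-2SA libraries were above all others (log2 fold change 0.94, SE 0.12, adjusted p = 7.20e-05). MIR100HG, whose row also lists 3 transcripts without a gene name, passed without reaching a ratio of 2, with 18.5, 23.7 and 25.2 FPKM in Control and 26.8, 35.5 and 33.3 in YAP-2SA (0.49, adjusted p = 0.024). This call was lost without Control replicate 1 (adjusted p = 0.0886), YAP-2SA replicate 2 (0.0859) or YAP-2SA replicate 3 (0.0724). MIR17HG (-0.09, adjusted p = 0.781) and MIR497HG, at 9.15 to 12.5 FPKM in Control and 9.92 to 11.2 in YAP-2SA, did not pass.

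MIR22HG varied between libraries rather than between groups. Its row, which also lists MIR22, had 5.08, 5.92 and 3.75 FPKM in Control, 10.5, 38.6 and 5.4 in YAP-S127A, 6.52, 54.1 and 4.43 in the YAP-S127A,S94A libraries, and 14.5, 5.67 and 11.6 in YAP-2SA. The libraries numbered 2 of YAP-S127A and YAP-S127A,S94A stood apart, and the log2 fold change of 0.90 in YAP-2SA had an SE of 0.85 (adjusted p = 0.429).

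Mature miRNAs are not read by such libraries, and of the precursors with a row of their own MIR31, MIR100, MIR125B1 and MIR497 were listed at 0 in every library and MIRLET7A2 in all but Control replicate 1 (0.826 FPKM). Mature sequences are shown for the hosts above because they say which miRNA families the changed transcripts could yield. They come from RefSeq (GRCh38.p14) and carry the seed, bases 2 to 8, in capitals. The host that rose most, MIR31HG, holds miR-31, and the LINC00461 transcript that fell holds miR-9:
hsa-miR-31-5p: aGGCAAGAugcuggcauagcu
hsa-miR-9-5p: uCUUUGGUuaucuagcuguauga
hsa-miR-9-3p: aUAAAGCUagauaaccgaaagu
MIR100HG holds 3 miRNAs whose seeds recur in 3 miRNAs within the RefSeq span of SPACA6, the coding gene to which LINC00085 now belongs, where they lie before the start used for its promoter window:
hsa-miR-100-5p: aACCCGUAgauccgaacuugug
hsa-miR-99b-5p: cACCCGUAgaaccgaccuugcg
hsa-let-7a-5p: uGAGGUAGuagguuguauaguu
hsa-let-7e-5p: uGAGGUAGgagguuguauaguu
hsa-miR-125b-5p: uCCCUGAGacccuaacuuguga
hsa-miR-125a-5p: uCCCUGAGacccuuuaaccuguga
Within each pair the first sequence lies in MIR100HG and the second in the span of SPACA6. LINC00085 had 3.34, 2.73 and 3.5 FPKM in Control and 2.23, 3.12 and 2.22 in YAP-2SA (log2 fold change -0.26, adjusted p = 0.127), and did not pass, unlike MIR100HG.

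The remaining loci that passed without a ratio of 2 were mostly abundant. ZNFX1-AS1 rose from 235, 218 and 217 to 295, 310 and 295 FPKM (log2 fold change 0.42, SE 0.05, adjusted p = 5.02e-05), a small difference that was larger than its spread, while ZNFX1 had 0.08 (adjusted p = 0.578). HIF1A-AS2 rose from 29.5, 35.1 and 32.4 to 52.4, 45.6 and 49.4 FPKM, and HIF1A, which encodes a subunit of the hypoxia-inducible factor, rose beside it (0.59 and 0.74). RUSC1-AS1 (0.66) and KTN1-AS1 (0.41) rose with their partners RUSC1 (0.35) and KTN1 (0.55). EPB41L4A-AS1, a host of a small nucleolar RNA, fell from 22.9, 22.6 and 28.3 to 17, 15.8 and 14.7 FPKM (-0.60, adjusted p = 0.00539), and EPB41L4A did not pass (-0.16, adjusted p = 0.403). On shared rows, the row of CDKN2B-AS1 (ANRIL) and MTAP fell by 0.66, the row of LINC00338 (SNHG20) and SEC14L1 rose by 0.79, and the row of FAS-AS1 and the smooth muscle actin gene ACTA2 rose by 0.81, values that cannot be divided between the symbols. CDKN2B did not reach the filter. Without Control replicate 3, FBXO22-AS1, FRMD6-AS1, HNRNPU-AS1, LINC00493 and TP73-AS1 no longer passed, with adjusted p of 0.0573 to 0.0655. The partner FBXO22 (log2 fold change 0.25, adjusted p = 0.0318) was likewise lost without that library (adjusted p = 0.106). The partner FRMD6 (0.04, adjusted p = 0.645) passed neither with it nor without it (0.917). These small differences also depended on other libraries, since FBXO22-AS1 (0.067), KTN1-AS1 (0.0555) and TP73-AS1 (0.0831) were lost without YAP-2SA replicate 2, HNRNPU-AS1 (0.0724) and LINC00493 (0.0857) without YAP-2SA replicate 3, LINC00493 (0.0505) without YAP-2SA replicate 1, and HNRNPU-AS1 (0.0602), LINC00493 (0.0705) and TP73-AS1 (0.0705) without Control replicate 2. In total 49 of the 85 loci did not pass.

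The comparison of YAP-S127A with Control asked which loci respond when the degradation site of YAP is intact. Only TLR8-AS1 was called, higher, and 0 were called lower, against 2.07% and 0.405% of all loci tested. Its log2 fold change was 0.42 (SE 0.09, adjusted p = 0.025), but the adjusted p rose to 0.061, 0.0861 and 0.0592 without Control replicate 1, 2 or 3 and to 0.0847 without YAP-S127A replicate 1. Without the fold threshold, MAGI2-AS3 (0.46, adjusted p = 0.0472) also passed higher, and LINC00326 (-0.52, adjusted p = 0.0175), LINC00473 locus 1 (-0.48, adjusted p = 0.0159) and ARHGAP5-AS1 (-0.58, adjusted p = 0.0446) passed lower. These 5 are loci that were called in the same direction in YAP-2SA, a comparison that shares the Control libraries. Each fell short under at least 1 alternative, and without Control replicate 3 LINC00326 alone passed (-0.61, adjusted p = 0.0126), with 0.0514 to 0.0815 for the other 4. LINC00326 was itself lost without YAP-S127A replicate 1 (adjusted p = 0.0503) or YAP-S127A replicate 3 (0.0647), and LINC00473 locus 1 without YAP-S127A replicate 3 (0.0592). ARHGAP5-AS1 and MAGI2-AS3 were lost without most of the single libraries, with adjusted p of up to 0.129 and 0.144, both without YAP-S127A replicate 1.

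In cells with YAP-S127A,S94A, which cannot bind TEAD, 0 of the 85 loci were called in limma against Control, with or without Control replicate 3 and with or without the fold threshold, where 0.0797% of all loci were called higher and 0.093% lower. At an unadjusted p under 0.05 in limma there was 1 locus, LINC00473 locus 1 (log2 fold change 0.23, SE 0.10). Without Control replicate 3 there were 4, LINC00473 locus 1 (0.32), LINC00221 (-0.22), MAGI2-AS3 (-0.25) and C17orf76-AS1 (-0.71), with adjusted p of 0.68 to 0.981 in limma. Over the 20 loci called in YAP-2SA, the log2 fold changes in YAP-S127A,S94A ran from -0.14 to 0.25. Among all 85 loci, 84 had a log2 fold change between -0.5 and 0.5, and the other was MIR22HG, at 1.16, which rests on 1 library. Without Control replicate 3 there were 83, the others being MIR22HG (1.01) and C17orf76-AS1. A value that misses the threshold does not show that the level was the same, and with SE of 0.09 to 0.26 for these 20 loci small differences were not detectable.

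**Figure D4:**
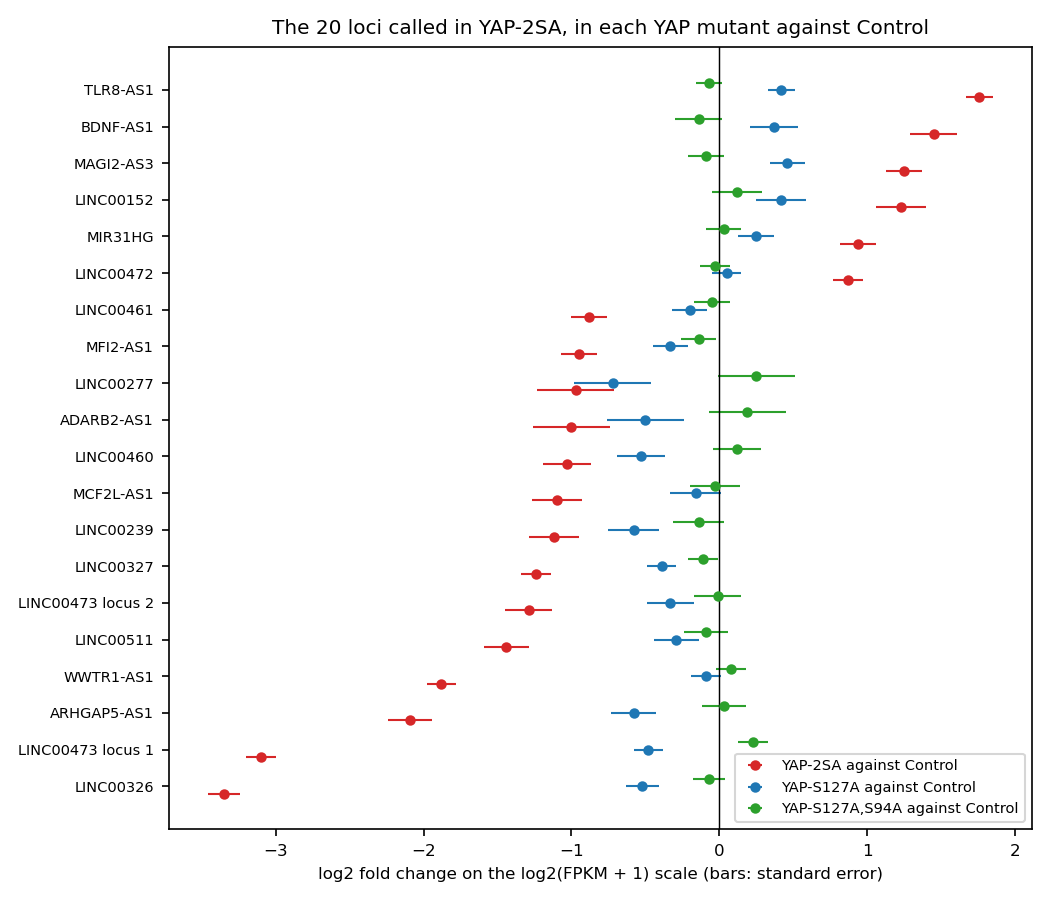
Log2 fold changes (points) with standard errors (bars) of the 20 loci called in YAP-2SA against Control, for each of 3 YAP mutants against the same Control libraries. The YAP-2SA points (red) are farthest from 0, the YAP-S127A points (blue) lie on the same side of 0 but closer to it, and the YAP-S127A,S94A points (green) lie between -0.14 and 0.25.

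The comparison of YAP-S127A with YAP-S127A,S94A contrasted no Control library, though these entered the estimate of the spread, and asked what changes with the ability to bind TEAD. TLR8-AS1 was called higher, and LINC00277 and ZRANB2-AS1 lower, against 2.54% and 0.95% of all loci. TLR8-AS1 had 0.884, 0.627 and 0.591 FPKM with YAP-S127A and 0.191, 0.219 and 0.207 with YAP-S127A,S94A. All of these values lie under 1 FPKM, and TLR8-AS1 had passed the filter only through the YAP-2SA libraries. ZRANB2-AS1 had passed the filter only through the YAP-S127A,S94A libraries, and its partner ZRANB2 had a log2 fold change of -0.23 (adjusted p = 0.0584). LINC00277 had 3.86, 4.31 and 3.55 FPKM with YAP-S127A,S94A and 0.854, 2.3 and 1.59 with YAP-S127A, groups that did not overlap (log2 fold change -0.96, adjusted p = 0.0417). This call was not firm, since its adjusted p was 0.124, 0.0899, 0.103, 0.111 and 0.0924 without YAP-S127A replicate 1 or 3 or any 1 of the YAP-S127A,S94A replicates, 0.0573 without Control replicate 2 and 0.0571 without YAP-2SA replicate 1. The adjusted p of ZRANB2-AS1 (log2 fold change -0.54, adjusted p = 0.0278) became 0.0644 to 0.0859 without YAP-S127A replicate 1 or 2 or any 1 of the YAP-S127A,S94A replicates. Without the fold threshold, MAGI2-AS3 (0.55) passed higher, and LINC00473 locus 1 (-0.72, SE 0.10, adjusted p = 0.00118), LINC00460 (-0.65), ARHGAP5-AS1 (-0.61), LINC00326 (-0.45) and LINC00493 (-0.32) passed lower. LINC00473 locus 1 and TLR8-AS1 were past the threshold under every alternative, TLR8-AS1 with a highest adjusted p of 0.031. The other 5 were each lost without at least 1 YAP-S127A or YAP-S127A,S94A library, with adjusted p of up to 0.104. The 6 loci called higher in YAP-2SA against Control had positive values here in 6 of 6 and the 14 called lower had negative values in 14 of 14, with medians of 0.40 and -0.38. Of these 20, 2 and 5 passed. The same shares over all loci called in YAP-2SA were not computed, so these counts do not set lncRNA loci apart. The study states that most genes changed in YAP-2SA moved the same way, by less, in YAP-S127A.

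YAP-2SA and YAP-S127A differ by the degradation site, and between them 3 loci were called higher and 10 lower, against 5.17% and 5.94% of all loci. The 3 higher were TLR8-AS1 (log2 fold change 1.34), BDNF-AS1 (1.08) and LINC00472 (0.82), of which the first pair owed their place to the YAP-2SA libraries. The lower ones were led by LINC00326 (-2.83, adjusted p = 2.28e-08), LINC00473 locus 1 (-2.62, adjusted p = 2.14e-08), WWTR1-AS1 (-1.79, adjusted p = 2.46e-07), ARHGAP5-AS1 (-1.51, adjusted p = 2.25e-05) and LINC00511 (-1.16, adjusted p = 1.79e-04). This comparison contrasts the same YAP-2SA libraries as that of YAP-2SA with Control, so an overlap of their calls was in part built in. Of the 20 loci called in YAP-2SA against Control, 6 of the higher and 12 of the lower passed here without the fold threshold. LINC00277 and ADARB2-AS1 did not, and their values were -0.25 (adjusted p = 0.515) and -0.50 (adjusted p = 0.168). The matching share over all loci called in YAP-2SA was not computed. The call of LINC00239 (-0.54, adjusted p = 0.0364) was lost without YAP-S127A replicate 1 or 3 or any 1 of the YAP-2SA replicates, with adjusted p of 0.0598 to 0.125.

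The promoters of the loci were searched for the letters of the TEAD element, GGAATG or its complement CATTCC, since the mutants differ in TEAD binding. A RefSeq promoter window (GRCh38.p14, 250 bases before the start to 50 after) was found for 65 of the 84 symbols. The element stood in 8 of these 65 (12.3%), and in 14% of 27305 windows of all genes. Among called loci it stood in 2 of the 11 windows of loci lower in YAP-2SA, ARHGAP5-AS1 and ADARB2-AS1, and in 0 of the 5 windows of higher ones. The AP-1 element, TGAGTCA or its complement TGACTCA, was added after values had been seen. It stood in 3 of 65 windows (4.62%) and in 4.92% of all, but LINC00152 and LINC00460 each held it 2 times, which 0.212% of all windows do. The cAMP response element of CREB, TGACGTCA, which reads the same on both strands, was searched as well and stood in 1 of 65 windows (1.54%), that of LINC00265, and in 1.98% of all, and the window of LINC00473 did not hold it. A match is a description of these letters and not of a bound site, and the windows do not cover enhancers. Of the 4 called loci with a TEAD or AP-1 match, the windows of the 3 with the highest levels are shown, with the matches in capitals:
ARHGAP5-AS1, chr14:32076650-32076949, minus strand: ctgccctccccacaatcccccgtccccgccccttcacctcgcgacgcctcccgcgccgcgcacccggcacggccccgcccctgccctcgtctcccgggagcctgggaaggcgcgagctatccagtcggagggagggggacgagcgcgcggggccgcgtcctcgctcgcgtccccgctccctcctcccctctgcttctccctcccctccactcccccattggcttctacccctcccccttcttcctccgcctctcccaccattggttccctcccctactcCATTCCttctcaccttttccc
LINC00152, chr2:87455177-87455476, plus strand: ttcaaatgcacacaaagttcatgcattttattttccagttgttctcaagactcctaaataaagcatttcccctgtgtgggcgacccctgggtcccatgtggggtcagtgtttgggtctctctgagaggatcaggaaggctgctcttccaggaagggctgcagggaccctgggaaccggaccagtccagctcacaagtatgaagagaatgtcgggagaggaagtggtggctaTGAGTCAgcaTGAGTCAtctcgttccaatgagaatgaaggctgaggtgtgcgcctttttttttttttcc
LINC00460, chr13:106376314-106376613, plus strand: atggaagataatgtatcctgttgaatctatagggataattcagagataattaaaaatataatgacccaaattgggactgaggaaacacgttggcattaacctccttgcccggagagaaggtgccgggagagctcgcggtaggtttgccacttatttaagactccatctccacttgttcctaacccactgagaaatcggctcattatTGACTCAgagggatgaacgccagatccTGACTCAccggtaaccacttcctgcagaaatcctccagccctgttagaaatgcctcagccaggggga
The TEAD letters of ARHGAP5-AS1 lie after its start, with the first base at position 30, and the AP-1 letters of LINC00152 (first bases at -19 and -9) and LINC00460 (-44 and -17) lie before it. LINC00152 rose and LINC00460 fell in YAP-2SA, so the same letters were found beside changes in both directions.

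A pair of lists of lncRNAs was read beside the 85 loci, mostly of genes without a systematic name, but with some of the 85 among them. Of a list of general lncRNAs and small nucleolar RNA hosts, 28 rows were tested in YAP-2SA against Control, with a median of 0.11. Of these, 1 was called higher, the imprinted H19 (log2 fold change 3.38), and 1 lower, RMRP (-1.25), the RNA of a ribonuclease. RMRP had 16.1, 33.7 and 21.1 FPKM in Control and 5.42, 12.8 and 9.9 in YAP-2SA. It was also low in the YAP-S127A,S94A libraries, at 14, 6.98 and 8.62. Beside both lists, 7.59% of all loci tested were called higher and 7.86% lower. The counts of both lists are with all libraries. NEAT1, the scaffold of paraspeckles, rose by 0.74 and CRNDE fell by 0.51, neither with a ratio of group means over 2. OIP5-AS1, which is on this list and one of the 85 loci, did not pass (0.34, adjusted p = 0.0799), and OIP5 had a log2 fold change of 0.23 (adjusted p = 0.0154, and 0.0529 without Control replicate 3). A list of lncRNAs studied in melanoma held 17 names, of which 10 had a row and 5 were tested. Of these 5, 3 were called higher (UCA1, MIR31HG and LINC00152) and 1 lower (LINC00511), of which UCA1 alone is not among the 85 loci. UCA1 had 0.287, 0.446 and 0.675 FPKM in Control, 29.6, 28.4 and 25.2 in YAP-S127A, 0.43, 0.0733 and 0.336 in the YAP-S127A,S94A libraries, and 98.4, 125 and 130 in YAP-2SA. Its rise (log2 fold change 6.33) exceeded that of every one of the 85 loci, of which the largest rise was 1.76 and the largest fall -3.35. UCA1 reached 1 FPKM in the YAP-S127A and YAP-2SA libraries alone, so a rise there was built into its being tested.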

How the data were processed

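Per the labels, the authors sequenced total RNA of A375 cells from TruSeq libraries. They aligned the reads to hg19 with Bowtie2 2.0.0 and TopHat2 2.0.4, assembled transcripts with Cufflinks 2.0.2 against UCSC known genes, and deposited 1 table of log2 values, log2(FPKM + 1), per locus and library. Strandedness and the handling of reads that align to several places are not given in the sources used here. Depth is unknown, because whole reads could not be recovered from the steps of low values, so precision rests on the spread between 3 libraries.

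Of 31588 rows 3 identical ones were removed, and limma 3.58.1 (R 4.3.3) was fitted once to all 12 libraries, with a mean for each group and an intensity trend. Tested were the 15055 loci that reached 1 FPKM in 3 or more libraries, with Benjamini-Hochberg adjustment over all tested loci. Called loci had an adjusted p under 0.05 and group means of FPKM, without pseudocount, more than 2-fold apart. Log2 fold changes include the added 1 and understate changes of low loci. On simulated data of the YAP-2SA against Control comparison with 200 changed genes, 187 passed the adjusted p with the correct sign. So did 9 unchanged ones among 15055. The fold rule was not part of this count, and the simulated noise was normal. The changed genes were drawn from loci above a minimum level, so the count does not describe the lowest loci. Members and gene lists were chosen with earlier results of these data known.

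Loci named were those called in any comparison, the 10 with the highest mean FPKM, all hosts, members of the lists, and, for antisense loci named by these rules, the partner with a row of its own. Other members past the adjusted p, GNAS-AS1, LINC00085, LINC00221, LINC00265 and the AP-1 and cAMP response elements were chosen after their values were seen. Coordinates are those of GENCODE genes on GRCh37, since the loci carry none, and sequences are from RefSeq on GRCh38.p14. Alternatives were a pseudocount of 0.1, no filter, median-ratio scaling, no intensity trend, a block for the replicate number, no fold threshold, a fit limited to the 6 libraries of a comparison, and each library left out.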

Additional observations from a re-analysis of the deposited data

How the results depend on the processing

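Of the 20 loci called in YAP-2SA against Control, 19 were called under every other fit, LINC00277 being the exception. Of 80 single results past the threshold, 0 reversed and 55 passed under every alternative, 28 of 36 in YAP-2SA against Control, 25 of 30 in YAP-2SA against YAP-S127A, 0 of 5 in YAP-S127A against Control and 2 of 9 in YAP-S127A against YAP-S127A,S94A. Without the fold threshold, calls rose to 16 higher in YAP-2SA against Control, to 14 higher and 16 lower in YAP-2SA against YAP-S127A, to 2 higher and 3 lower in YAP-S127A against Control, and to 2 higher and 7 lower in YAP-S127A against YAP-S127A,S94A, by the construction of this alternative. For counts without the fold threshold, the share over all loci was taken only in YAP-2SA against Control. In YAP-S127A against Control, the 1 higher call became 0 with only the 6 libraries compared and was 0 to 1 with 1 library left out. In YAP-S127A against YAP-S127A,S94A, the 2 lower calls became 0 without the filter and with only the 6 libraries compared, and 1 with a pseudocount of 0.1, which gave 2 higher calls. With 1 library left out, lower calls there were 0 to 2 and higher calls 1 to 2. The cause of these shifts was not tested. The replicate number as a block gave 6 higher and 14 lower calls in YAP-2SA against Control, and in YAP-2SA against YAP-S127A it gave 3 higher and 9 lower, in YAP-S127A against Control 1 and 0, in YAP-S127A,S94A against Control 0 and 0, and in YAP-S127A against YAP-S127A,S94A 1 and 2. The numbers were not taken to pair the libraries, since the deviations of same-numbered libraries correlated by -0.15 to 0.16 and 5 of 12 libraries matched their own number best. Depth is unknown, and 45 of the 85 loci had a mean under 3 FPKM, so differences of the lowest loci were the hardest to detect.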
